A study of Mus musculus with 23 samples.

Results

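Retrosplenial cortex (RSC) and medial entorhinal cortex (MEC) of the adult mouse had 748 enhancer elements marked by acetylated histone H3 (H3K27ac) in their deposited enhancer lists that anterior cingulate cortex (ACC) and lateral entorhinal cortex (LEC) did not. They were found by joining the enhancer regions of the 4 subregions wherever they overlapped by at least 1 bp. An element was kept when RSC and MEC regions contributed to it and no ACC or LEC region did. The 748 elements were 1.78% of the 42115 H3K27ac elements of the series. They were thus chosen by their H3K27ac regions, and their presence in RSC and MEC and absence from the ACC and LEC enhancer lists is not a finding.

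The groups used were RSC, MEC, ACC and LEC, each a bulk dissection of both hemispheres from C57BL6J mice at postnatal day 56, cut from unstained sections of 500 µm. The labels describe 2 H3K27ac and 2 H3K4me2 libraries per subregion, except MEC with 1 H3K4me2 library, and 2 input libraries for each. Each subregion and mark had a single list of reproducible regions (the full list) and a list of those kept as enhancers, with no value per library, so no spread between animals could be given and no test across animals made. The lists hold no expression, so the labelled tissues could not be checked against marker genes, and more cells with a mark cannot be told apart from a stronger mark per cell. Enhancer lists of RSC, MEC, ACC and LEC held 24272, 10951, 27909 and 22973 H3K27ac regions and 28675, 15041, 34180 and 29125 H3K4me2 regions. List length can follow sequencing depth, which is unknown here, and its part in the overlaps was not tested. Ranges in brackets are Wilson 95% intervals. They cover counting error alone, and neighbouring elements are not independent.

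Enhancers are stretches of DNA that raise the transcription of genes, often from far away and in particular cell types. H3K27ac marks enhancers and promoters in use. H3K4me2, a methylation of the same histone, is found at active and at inactive but accessible enhancers and promoters, so an element can carry H3K4me2 in a tissue where it lacks H3K27ac. RSC and MEC are separate cortical areas known for their part in spatial navigation: MEC contains grid cells, and RSC is linked to landmarks and head direction. ACC is a frontal midline area, and LEC is the neighbour of MEC in the entorhinal cortex.

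The 748 elements were 3.21% (2.99 to 3.44) of the 23328 elements with an RSC region and 7.29% (6.81 to 7.81) of the 10255 with a MEC region. Among elements that MEC had with a single other subregion, those with RSC were the most numerous, against 403 with LEC and 329 with ACC. RSC had more elements with ACC alone (4205) or LEC alone (1479) than with MEC alone, but the MEC list was the shortest. Elements of RSC and LEC only were 6.72% (6.40 to 7.06) of the 21999 LEC elements, close to the 7.29% for MEC. Those of RSC and ACC only were 15.5% (15.1 to 16.0) of the 27045 ACC elements. As a share of the MEC elements, LEC alone accounted for 3.93% (3.57 to 4.32) and ACC alone for 3.21% (2.88 to 3.57).

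Most of the elements were a simple pair of regions. In 727 of 748, a single RSC region met a single MEC region. In 304 of these pairs the MEC region lay wholly within the RSC region, and in 159 the RSC region lay within the MEC region (1 pair with identical ends counts in both). The remaining 265 pairs were staggered. Only 7 elements joined more than 1 RSC region and 15 joined more than 1 MEC region.

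Widths were similar in the lists, and the wider side differed between elements that did and did not overlap a full-list H3K27ac region of ACC or LEC. The cause of that difference was not tested. The RSC width in an element had a median of 2250 bp (range 700 to 24825), and the MEC width a median of 2000 bp (range 525 to 16500). RSC was wider in 453 elements, MEC in 282, and 13 had equal widths. The RSC lead lay in the 221 elements that overlap any H3K27ac region of ACC or LEC, described further on, where RSC was wider in 196 and MEC in 23. In the other 527, RSC was wider in 257 and MEC in 259, and the medians were 1925 bp in RSC and 1950 bp in MEC. The difference, RSC minus MEC, had a median of 262.5 bp, with quartiles of -450 and 1125 bp, so the direction was far from uniform. The part in both lists had a median of 1500 bp and made up a median of 59.3% of the element. At least 50% of the narrower side was shared in 734 of 748, so few elements rested on a slight touch.

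The elements were of ordinary size for their lists. Their RSC regions sat at a median percentile of 54.7 by width among all RSC enhancer regions, and their MEC regions at 46.0 among all MEC enhancer regions. Median RSC width was 1325 bp in elements of RSC alone, 1825 bp in those of RSC and ACC only, and 1850 bp in those of RSC and LEC only. Median MEC width was 1700 bp in elements of MEC alone, 1950 bp with ACC only and 2275 bp with LEC only. The RSC and MEC elements thus sat above these classes in RSC width, and between them in MEC width. They were narrower in RSC than the other classes with both regions: 2850 bp with ACC, 3112.5 bp with LEC and 4025 bp with ACC and LEC. MEC widths in those classes were 2225, 1975 and 2475 bp. Wide regions overlap others more easily, so these widths are a description of what the rule selected.

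**Figure D1:**
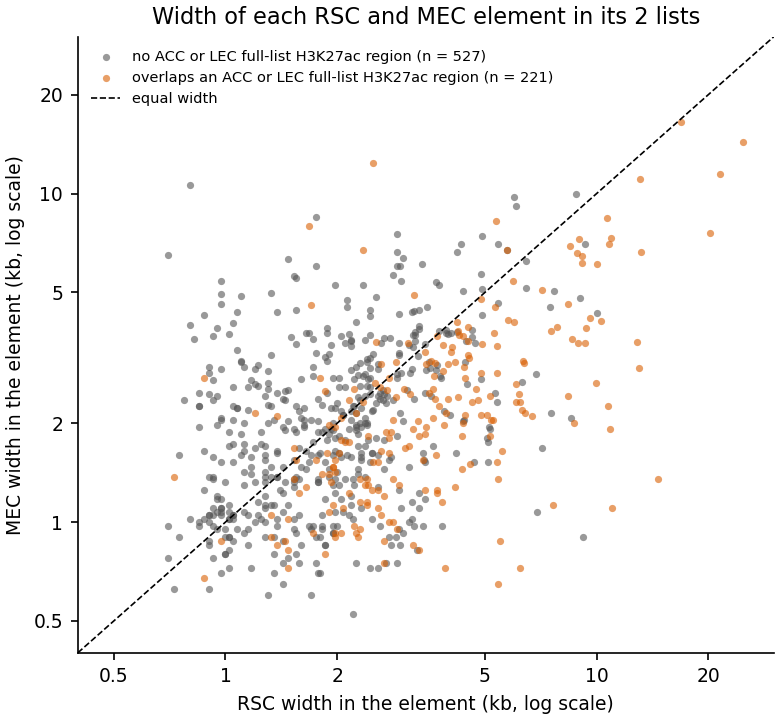
Each point is 1 of the 748 RSC and MEC elements, with its summed RSC width against its summed MEC width in kb, both on log scales, and a dashed line of equal width. Orange points overlap a full-list H3K27ac region of ACC or LEC, and 196 of these 221 lie below the line, where RSC is wider, while 257 of the 527 grey points do.

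Absence from the ACC and LEC enhancer lists did not always mean absence of H3K27ac there. The full lists also hold the regions left out of the enhancer lists, called excluded regions here because no source used here gives the rule that removed them. Full-list regions of ACC or LEC overlapped 221 elements, 29.5% (26.4 to 32.9), close to the 28.2% of all 7892 elements without an ACC or LEC enhancer region. ACC accounted for 203 elements and LEC for 187, of which 169 were in both. By the same count the overlap was 19.3% (18.2 to 20.4) for elements of RSC alone and 48.1% (46.0 to 50.2) for elements of MEC alone. The other 527 elements met no H3K27ac region of ACC or LEC in any list.

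The ACC and LEC regions on these 221 elements were broad. None was in an enhancer list. The 194 ACC regions had a median width of 12000 bp, against 3050 bp for all 20357 excluded ACC regions, and the widest reached 148325 bp. The 179 LEC regions had a median of 9700 bp, against 2925 bp for all 19163 excluded LEC regions. Wide regions overlap elements more easily, and the part of this in the difference was not tested. They covered the elements from end to end in 143 of 203 cases for ACC and 132 of 187 for LEC, so the element was typically a short stretch inside a longer ACC or LEC region. Excluded RSC regions also lay close by: 127 of the 221 elements, 57.5% (50.9 to 63.8), had one within 5 kb, against 29 of the 527, 5.50% (3.86 to 7.79). Excluded MEC regions lay within 5 kb of 81 of the 221 and 15 of the 527. Of the 194 ACC regions, 108 also overlapped an excluded RSC region, 55.7% (48.6 to 62.5), against 67.9% of all excluded ACC regions. In these 108, RSC had a region kept as an enhancer and an excluded one along a single ACC region.

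This overlap was uneven across the width balance. Where RSC was more than 2 times wider than MEC (142 elements), 53.5% (45.3 to 61.5) met a full-list H3K27ac region of ACC or LEC. It was 26.4% (22.8 to 30.3) in the 531 elements within 2 times of equal width. Where MEC was more than 2 times wider (75 elements), 5 did, or 6.67% (2.88 to 14.7). The elements led by MEC were thus the ones most often free of acetylation in ACC and LEC, and they were also narrow in RSC, with a median of 1100 bp.

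Near misses were about as rare as among all elements without an ACC or LEC enhancer region. Of the 748 elements, 13 had an ACC enhancer region within 1 kb, 1.74% (1.02 to 2.95), against 1.51% of the 7892 elements without an ACC or LEC enhancer region. For LEC it was 6, 0.802% (0.368 to 1.74), against 0.925%. None lay within 100 bp. The median gap to the nearest enhancer region was 17662.5 bp for ACC and 23950 bp for LEC. Within 10 kb of an ACC or LEC enhancer region lay 314 elements, and 70 had none within 100 kb. The rule itself sets the lack of overlap, and the median gaps and the counts at 10 kb and 100 kb were not set beside those of other elements.

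**Figure D2:**
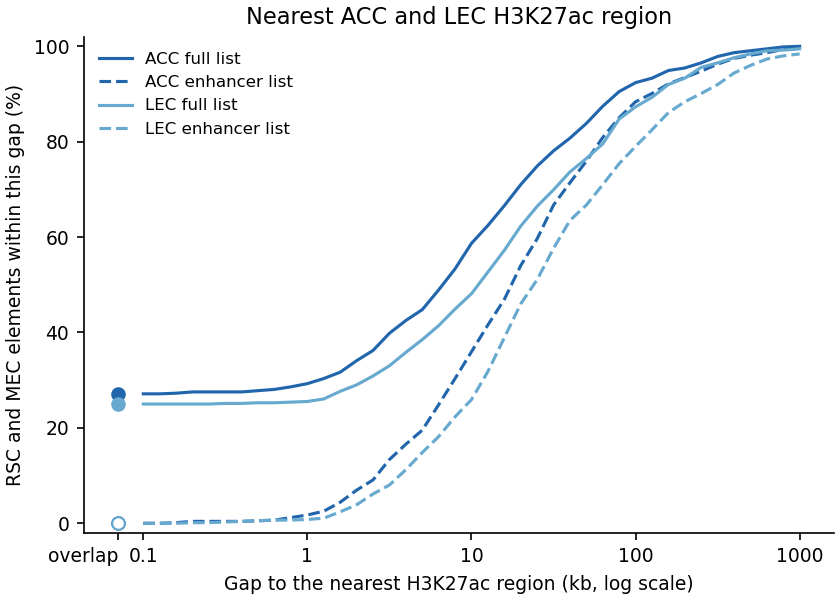
Percentage of the 748 RSC and MEC elements with an H3K27ac region of ACC (dark blue) or LEC (light blue) within a given gap in kb, on a log axis; circles at the left show overlap. Full lists (solid lines, filled circles) start at 27.1% for ACC and 25% for LEC, and enhancer lists (dashed lines, open circles) start at 0 by the rule.

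H3K4me2 was measured apart from H3K27ac and was not used to choose the elements. RSC H3K4me2 was found on 311 of the 748 elements, 41.6% (38.1 to 45.1), against 44.3% of all H3K27ac elements. MEC H3K4me2 was found on 190, 25.4% (22.4 to 28.6), against 19.5% of all. ACC H3K4me2 was found on 236, 31.6% (28.3 to 34.97), against 51.1% of all. LEC H3K4me2 was found on 206, 27.5% (24.5 to 30.9), against 43.5% of all. Beside all elements, the RSC share was close to the background, the MEC share was above it and the ACC and LEC shares were well below it. All elements include those with an ACC or LEC enhancer region, which the rule leaves out. The rule also requires an RSC and a MEC region, which 55.4% and 24.35% of all elements had. None of the 4 comparisons with all elements can thus be told apart from the rule. Other classes with both regions had higher RSC shares: 59.5% with ACC, 72.5% with LEC and 79.9% with ACC and LEC. Their MEC shares were 28.0% (25.6 to 30.5), close to that of the 748, and 47.2% and 49.6%, well above it. Elements of RSC alone had shares of 27.7% in RSC, 7.36% in MEC, 21.6% in ACC and 13.6% in LEC. In elements of MEC alone they were 24.1%, 20.5%, 19.7% and 18.9%. The 748 elements lay above both classes in all 4 subregions. They were also wider, and the part of width was not tested.

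RSC thus led on these elements, whereas ACC led over the series as a whole. Elements with RSC H3K4me2 and no ACC H3K4me2 numbered 118, and those with ACC and no RSC numbered 43. Over all elements the same counts were 4039 and 6882, the opposite order. The rule removes elements with an ACC enhancer region, which 64.2% of all elements had. This reversal thus cannot be told apart from the rule. The RSC lead was shared with related classes: the counts were 652 and 351 in elements of RSC alone, 226 and 131 in those of MEC alone, and 203 and 133 in those of RSC, MEC and ACC. RSC without LEC was found on 143 elements and LEC without RSC on 38. For MEC the counts stood the other way, with MEC without ACC on 87 and ACC without MEC on 133, and MEC without LEC on 89 and LEC without MEC on 105. Over all elements MEC without ACC was found on 1975 and ACC without MEC on 15248. The MEC H3K4me2 enhancer list covered 14.5 Mb, against 54.1 Mb in RSC, 72.1 Mb in ACC and 57.7 Mb in LEC, and it came from 1 library, so its lower share cannot be told apart from its shorter list.

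The order of subregions, with RSC first, then ACC, LEC and MEC, was not particular to these elements. Elements of RSC alone had the same order at lower levels, with 27.7% (26.5 to 28.96) in RSC, 7.36% (6.67 to 8.12) in MEC, 21.6% (20.5 to 22.8) in ACC and 13.6% (12.7 to 14.6) in LEC. The pairs with ACC or LEC had a smaller RSC lead or none. On elements of RSC and ACC only, RSC H3K4me2 was found on 48.4% (46.9 to 50.0) and ACC on 49.2% (47.7 to 50.7). On those of RSC and LEC only, the RSC share was 53.3% (50.7 to 55.8), level with ACC at 52.5% (49.9 to 55.0) although ACC lacked H3K27ac there in its enhancer list. In elements of MEC and LEC only the MEC share was 34.5% (30.02 to 39.3), and LEC led with 62.8% (58.0 to 67.4). RSC and MEC elements thus had lower RSC H3K4me2 than either other pair with RSC, and a MEC share close to the 23.7% (19.4 to 28.6) of MEC and ACC only.

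**Figure D3:**
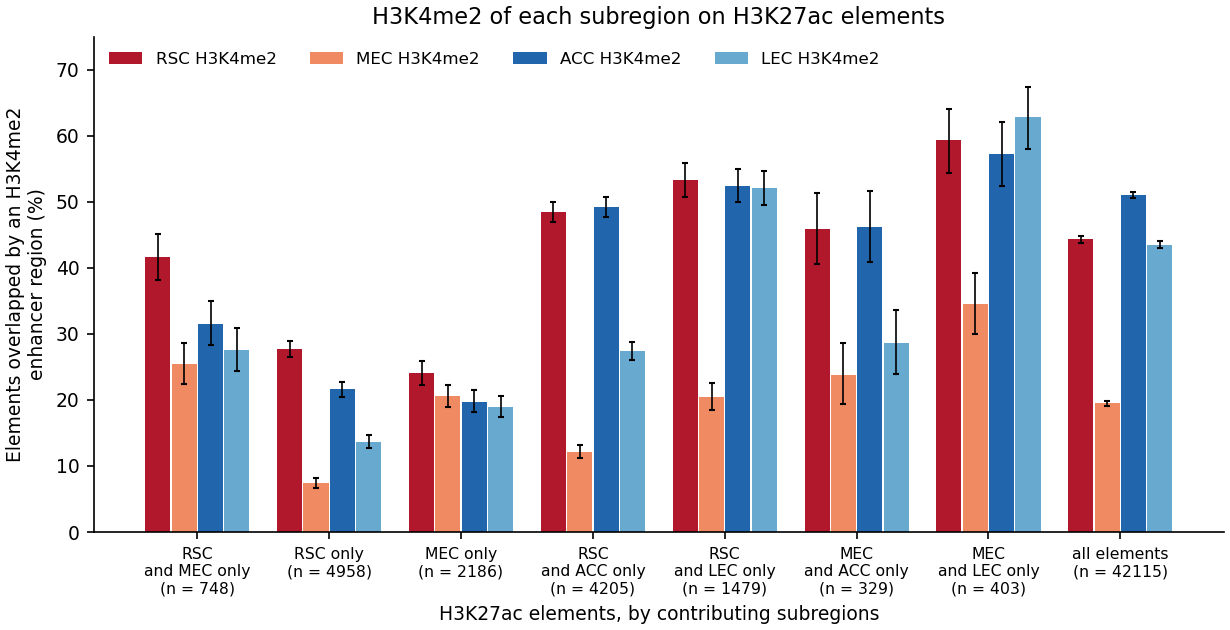
Percentage of H3K27ac elements overlapped by an H3K4me2 enhancer region of RSC, MEC, ACC and LEC, by the subregions that contributed to the element; error bars are Wilson 95% intervals and n is the number of elements. On the RSC and MEC elements at the left the RSC bar (41.6%) is the tallest, whereas ACC (51.1%) is the tallest over all elements.

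H3K4me2 combined across subregions in many ways, counted here by its enhancer lists unless the full lists are named. No subregion had H3K4me2 on 331 of the 748 elements, 44.3% (40.7 to 47.8), against 33.1% of all elements. The share was higher in elements of RSC alone, 61.2% (59.8 to 62.6), and of MEC alone, 56.5% (54.4 to 58.6). It was lower in the other pairs: 34.9% for RSC and ACC only and 26.6% for RSC and LEC only. For MEC and ACC only it was 35.9%, and for MEC and LEC only 16.6%. The next most common pattern was H3K4me2 in all 4 subregions, on 73 elements, 9.76% (7.83 to 12.1), against 10.6% of all. RSC H3K4me2 alone was found on 58, 7.75% (6.05 to 9.89), against 4.67% of all, and MEC alone on 45, 6.02% (4.53 to 7.96), against 1.79%. ACC alone was found on 19, 2.54% (1.63 to 3.93), against 6.81% of all, and LEC alone on 14, 1.87% (1.12 to 3.12), against 3.88%. RSC and MEC together carried it on 132 elements, 17.6% (15.1 to 20.5), against 14.9% of all. This was the lowest share among the classes with both RSC and MEC regions. The others had 22.5% (20.3 to 24.8) with ACC, 37.5% with LEC and 43.8% with ACC and LEC. On 122 elements, 16.3% (13.8 to 19.1), H3K4me2 was in RSC or MEC and in neither ACC nor LEC, against 7.27% of all elements. This share was 10.96% (10.1 to 11.9) in elements of RSC and ACC only and 14.0% (10.6 to 18.1) in those of MEC and ACC only. It was 12.9% (12.04 to 13.9) in elements of RSC alone and 16.7% (15.2 to 18.4) in those of MEC alone, so the RSC and MEC elements did not stand above the elements of MEC alone. By the full lists the 122 fell to 91, 12.2% (10.01 to 14.7), against 5.56% of all elements. That share was 10.2% in elements of RSC alone, 7.37% in those of MEC alone and 13.4% in those of MEC and ACC only. H3K4me2 matching the H3K27ac pattern exactly, in RSC and MEC and nowhere else, was found on 19 elements, 2.54% (1.63 to 3.93), against 0.81% of all. The share was similar in elements of MEC and ACC only, 2.74% (1.45 to 5.12), and of RSC, MEC and ACC, 2.24% (1.56 to 3.20). By the full lists the exact match was found on 10 of the 748, 1.34% (0.728 to 2.44), against 0.589% of all.

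H3K4me2 covered more of the part of the element that RSC and MEC shared than of the rest. No other class of elements was set beside this. RSC H3K4me2 enhancer regions covered 36.4% of the bases of the shared parts and 16.96% of the bases that flanked them within the elements. For MEC it was 12.7% and 4.04%, for ACC 27.3% and 15.1%, and for LEC 28.2% and 17.0%. All 4 subregions thus had more H3K4me2 in the shared part than beside it, ACC and LEC included. At the centre of the shared part, 38.0% of elements had RSC H3K4me2, 17.5% MEC, 27.4% ACC and 25.7% LEC. At 5 kb to the right, towards higher coordinates, it was 5.08% in RSC, 1.20% in MEC, 5.48% in ACC and 4.95% in LEC.

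**Figure D4:**
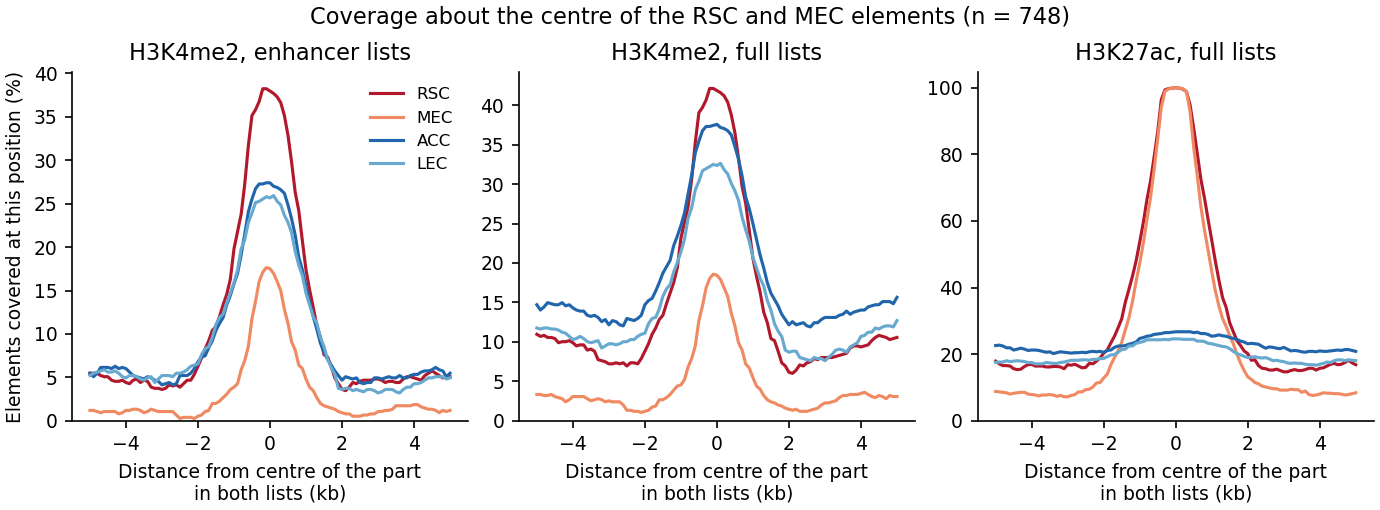
Percentage of the 748 RSC and MEC elements covered by a region of RSC, MEC, ACC or LEC at each distance in kb from the centre of the part in both H3K27ac lists, for H3K4me2 enhancer lists, H3K4me2 full lists and H3K27ac full lists. H3K4me2 peaks at the centre in all 4 subregions, while full-list H3K27ac declines only slowly in ACC, with 26.7% at the centre and 20.9% at 5 kb to the right, and in LEC, with 24.6% and 18.05%.

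H3K4me2 was more frequent on the elements that overlapped full-list H3K27ac regions of ACC or LEC than on the others. Among the 221 that met a full-list H3K27ac region of ACC or LEC, RSC H3K4me2 was found on 64.7% (58.2 to 70.7), MEC on 39.4% (33.2 to 45.9), ACC on 47.96% (41.5 to 54.5) and LEC on 57.0% (50.4 to 63.4). Among the other 527 it was found on 31.9% (28.0 to 36.0) in RSC, 19.5% (16.4 to 23.1) in MEC, 24.7% (21.2 to 28.5) in ACC and 15.2% (12.4 to 18.5) in LEC. By the enhancer lists RSC led in both sets, and MEC passed LEC in the second. By the full H3K4me2 lists RSC did not lead in the 221, with 76.5% (70.5 to 81.6) in RSC, 42.99% (36.6 to 49.6) in MEC, 81.4% (75.8 to 86.02) in ACC and 78.3% (72.4 to 83.2) in LEC. The first set was also wider, with a median of 3725 bp against 2475 bp, and the part of width in this difference was not tested. Counting full H3K4me2 lists narrowed the RSC lead over all 748 elements: 45.5% (41.9 to 49.0) in RSC, 26.5% (23.4 to 29.7) in MEC, 41.8% (38.4 to 45.4) in ACC and 34.2% (30.9 to 37.7) in LEC. Over all elements the full lists gave 47.9% in RSC, 20.2% in MEC, 56.7% in ACC and 47.8% in LEC.

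Wider elements met H3K4me2 more often, and the RSC share was the highest of the 4 in each band of width. Below 2000 bp (195 elements), RSC H3K4me2 was found on 32.8% (26.6 to 39.7) and ACC on 30.8% (24.7 to 37.6), a difference within their intervals. From 2000 to below 4000 bp (358 elements), RSC was on 38.8% (33.9 to 44.0) and ACC on 25.7% (21.4 to 30.5). From 4000 bp (195 elements), RSC was on 55.4% (48.4 to 62.2) and ACC on 43.1% (36.3 to 50.1). These last intervals overlap slightly. Over all elements of these widths RSC was behind ACC in each band, with 31.02%, 46.4% and 68.4% in RSC against 37.8%, 53.4% and 74.7% in ACC. Those elements include ones with an ACC enhancer region, so this contrast cannot be told apart from the rule either.

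Some elements had no region of either mark in ACC and LEC. Full lists of both marks in ACC and LEC were empty at 377 elements, 50.4% (46.8 to 53.97), against 55.1% of the 7892 elements without an ACC or LEC enhancer region. The share was 60.8% (59.4 to 62.1) in elements of RSC alone and 44.01% (41.9 to 46.1) in those of MEC alone, so the 748 lay between them. A further 150 had no full-list H3K27ac there but carried H3K4me2 in ACC or LEC, 20.1% (17.3 to 23.1). Of the 377, RSC H3K4me2 enhancer regions met 54 and MEC ones 38, with 9 in both and 294 in neither. Most of the 377 thus rested on H3K27ac alone. They had median widths of 1950 bp in RSC and 2050 bp in MEC, against 2575 bp and 1925 bp in the other 371.

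The elements lay on all autosomes and on chromosome X. They made up 1.78% (1.65 to 1.91) of all elements, and between 1.23% (0.795 to 1.89) on chromosome 16 and 2.61% (1.95 to 3.47) on chromosome 15 among autosomes. Chromosome X held 9 of its 1040 elements, 0.865% (0.456 to 1.64), the lowest share but for Y, which held 0 of 20. Chromosome 4 held the most, with 60 of 2471, or 2.43% (1.89 to 3.11). The median gap to an excluded H3K27ac region of RSC was 44075 bp, against 35050 bp over all elements, and 20.9% had one within 5 kb, against 17.0%. The median was thus farther than over all elements, while the share close by was higher.

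Most of the elements had no other of their class nearby. Another lay within 100 kb, between midpoints, for 169 of 748, 22.6% (19.7 to 25.7). Over all H3K27ac elements, 96.1% had another element of any class within 100 kb, a share set by their number. The share was 25.5% (23.3 to 27.8) for the 1479 elements of RSC and LEC only and 18.1% (14.7 to 22.2) for the 403 of MEC and LEC only. It was 10.3% (7.49 to 14.1) for the 329 of MEC and ACC only and 50.2% (48.6 to 51.7) for the 4205 of RSC and ACC only. Among these pairs, the 748 included, the share rose with the number of elements. Chained at gaps of up to 100 kb, the 169 formed 78 clusters: 68 pairs, 7 groups of 3 and 3 groups of 4. The other 579 stood alone.

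The 5 clusters described next have the most elements, with ties settled by the summed width of their elements and 1 cluster on chromosome 18 passed over. Coordinates are 1-based in mm9. The cluster at chr17:81902001-81993075 held 4 elements over 91.1 kb. Its enhancer lists had 5 H3K27ac regions in RSC covering 18.2 kb, 6 in MEC covering 15.8 kb, 2 in ACC covering 1.85 kb and 0 in LEC. The widest element, chr17:81985526-81993075, was 6450 bp wide in RSC and 6225 bp in MEC, with 5125 bp in both lists. H3K4me2 did not follow H3K27ac in this cluster: RSC had 2 regions, MEC 1, ACC 4 and LEC 1, and the widest element met none of them.

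Within its span, the cluster at chr13:9947751-10019500 was the clearest case of H3K27ac without H3K4me2. RSC and MEC had 5 H3K27ac enhancer regions each over 71.8 kb, covering 10.5 kb and 10.4 kb, of which 4 pairs formed the 4 elements. ACC and LEC had 0 H3K27ac regions there, in the full lists too. No H3K4me2 region of any subregion lay in the span, in either kind of list. The span ends with the last element, however, and ACC regions of both marks lay just past it. An ACC H3K27ac enhancer region was 1925 bp from that element, where RSC and MEC also had H3K27ac regions. An ACC H3K4me2 region of 1325 bp overlapped that ACC H3K27ac region. The element chr13:9992201-9995175 was 2250 bp wide in RSC and 2975 bp in MEC, with all of the RSC region inside the MEC region.

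The remaining clusters held 3 elements each, among enhancers that other subregions also used. At chr9:112252151-112403775, H3K27ac enhancer regions numbered 13 in RSC covering 43.4 kb, 7 in MEC covering 34.7 kb, 6 in ACC covering 12.4 kb and 2 in LEC covering 3.55 kb. The 3 elements met no H3K4me2 region. At chr5:74583101-74740725, RSC had 8 regions, MEC 5, ACC 5 and LEC 2, and RSC H3K4me2 met 2 of the 3 elements, with 3450 and 2125 bp covered. The first of them, chr5:74583101-74587300, lay wholly in a full-list ACC region.

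The cluster at chr11:31907751-31964925 showed how an element can belong to the class while ACC and LEC are acetylated. Enhancer regions numbered 5 in RSC, 4 in MEC, 2 in ACC and 2 in LEC. In the full lists, however, H3K27ac covered 24.6 kb of the span in RSC and 17.3 kb in MEC, against 42.9 kb in ACC and 50.8 kb in LEC. All 3 elements lay in full-list H3K27ac regions of ACC and LEC, and all 3 carried RSC H3K4me2, at 5950, 4375 and 3500 bp. ACC and LEC thus had more acetylated bases than RSC and MEC here, in longer regions that their enhancer lists left out.

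**Figure D5:**
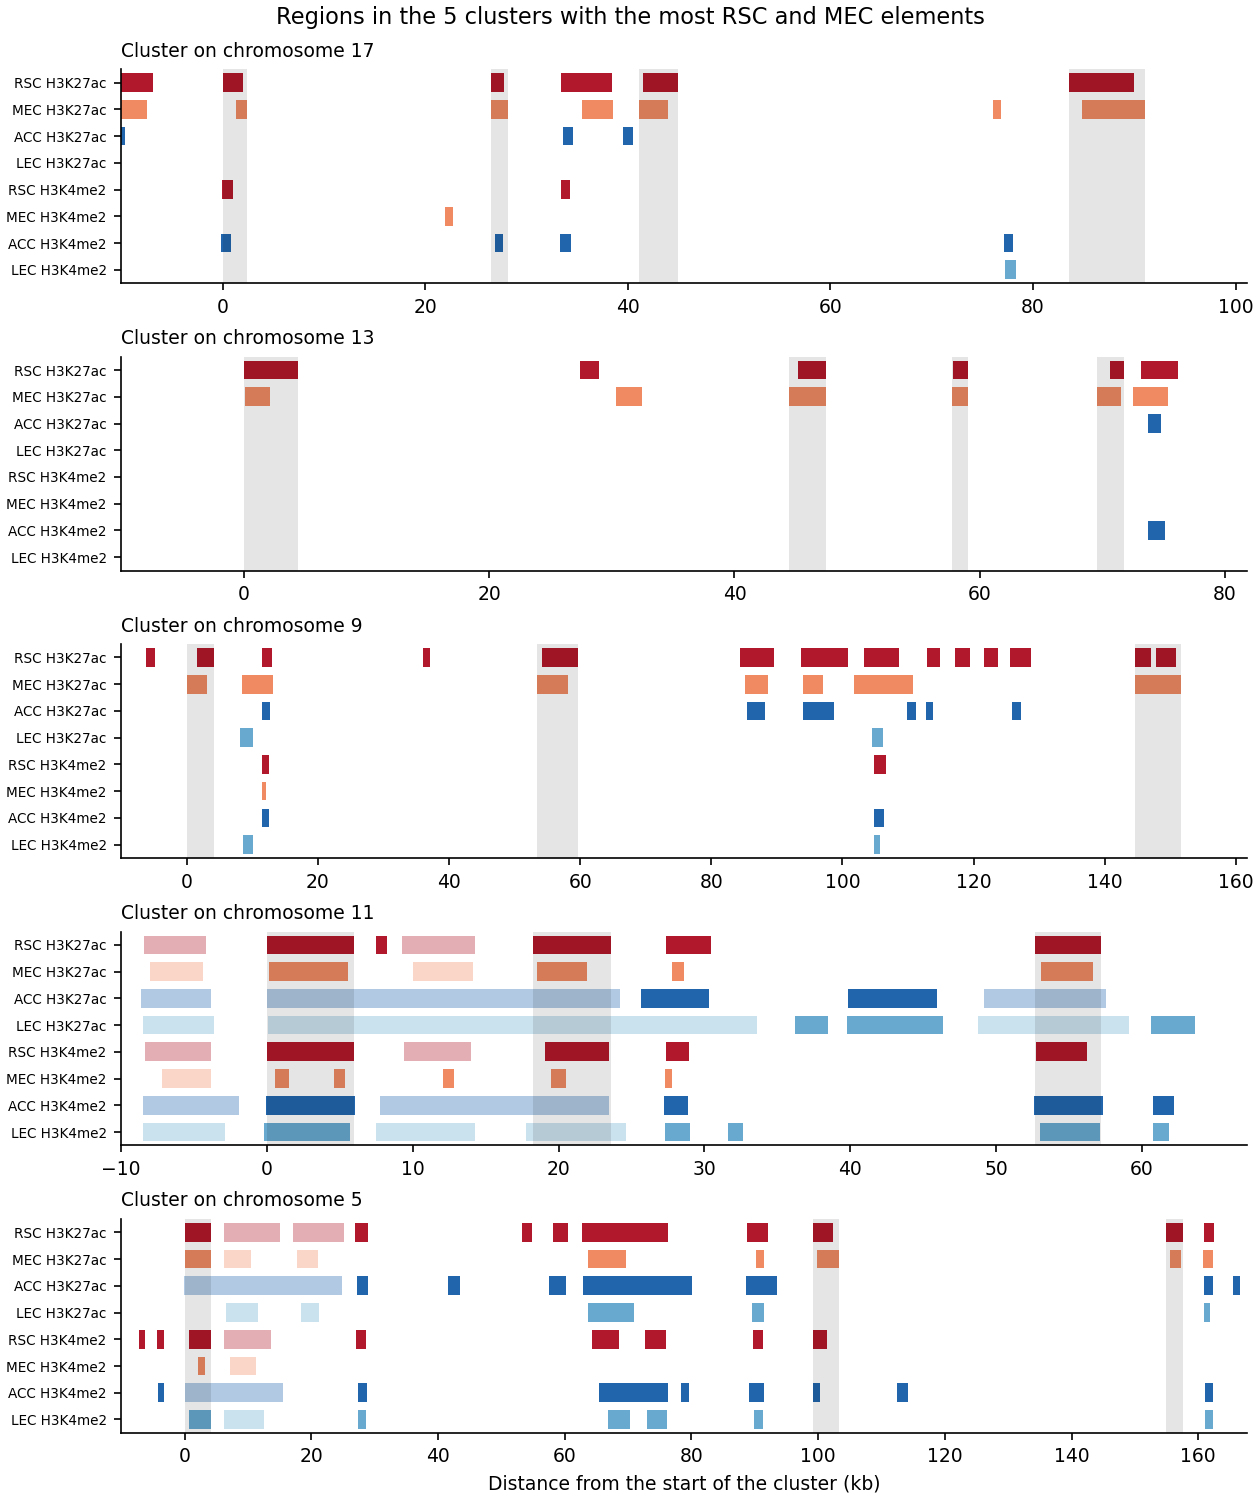
Regions of RSC, MEC, ACC and LEC for both marks in the 5 clusters, as distance in kb from the start of the cluster; strong bars are in the enhancer list, pale bars in the full list alone, and grey bands mark the RSC and MEC elements. The clusters on chromosomes 17, 13 and 9 have no ACC or LEC H3K27ac under the grey bands, while the one on chromosome 11 has long pale ACC and LEC bars under all 3.

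The elements with the most bases in both H3K27ac lists were mostly acetylated elsewhere as well. The largest, chr6:135800776-135817875, was 16900 bp wide in RSC and 16500 bp in MEC, with 16300 bp in both. ACC acetylation covered all 17100 bp of it in the full list, LEC had none in any list, and H3K4me2 enhancer regions covered 9100 bp in RSC, 3650 bp in MEC, 11875 bp in ACC and 10425 bp in LEC. The element chr1:39988201-40013025 had 24825 bp in RSC and 14375 bp in MEC, in 2 MEC regions, and full-list ACC and LEC regions covered it whole. The element chr12:109155626-109175850 had 20225 bp in RSC and 7575 bp in MEC, in 3 MEC regions, and was also covered whole in ACC and LEC. At chr2:30940501-30951275, with 10675 bp in RSC and 8450 bp in MEC, full-list ACC regions covered 7400 bp and LEC regions 9650 bp. The exception was chr11:40363351-40373325. It had 8775 bp in RSC, all inside the 9975 bp in MEC, with no H3K27ac of ACC or LEC in any list and only an ACC H3K4me2 region of 1225 bp.

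Among the 9 elements that carried H3K4me2 in RSC and MEC and had no region of either mark in ACC or LEC, the 5 with the most shared H3K27ac are named. The widest shared part was at chr16:12857276-12861250, with 3725 bp of H3K27ac in RSC and 3000 bp in MEC, and H3K4me2 over 2550 bp in RSC and 500 bp in MEC. At chr12:76959926-76962175 the marks matched most closely: H3K27ac was 2200 bp wide in RSC and 2250 bp in MEC, and H3K4me2 covered 825 bp in RSC and 850 bp in MEC. The element chr4:90143401-90146975 was the most isolated, with the nearest ACC enhancer region 599725 bp away and the nearest LEC one 600050 bp away. Its H3K27ac was 2175 bp wide in RSC and 3575 bp in MEC, and H3K4me2 covered 1000 bp in RSC and 675 bp in MEC. The others were chr12:28921676-28925275 and chr7:99040576-99044425. The element on chromosome 7 lay 400 bp from a LEC enhancer region, so its separation from LEC rested on a short gap.

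The most lopsided elements differed in what lay around them. RSC exceeded MEC by the most bases at chr5:124612451-124627125, with 14675 bp in RSC and 1350 bp in MEC, and next at the chr12:109155626-109175850 element above. Both were covered whole by full-list H3K27ac regions of ACC and LEC. MEC exceeded RSC by the most bases at chr3:107482451-107494975, with 2500 bp in RSC and 12375 bp in MEC. There the RSC full list covered 11550 bp, ACC 12325 bp and LEC 12525 bp, so RSC was acetylated over most of the element outside its enhancer list. At chr11:67222201-67232850, with 800 bp in RSC and 10650 bp in MEC, no further H3K27ac of any subregion and no H3K4me2 lay on the element in any list.

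The rule's threshold of 1 bp decided few elements. Just inside it, chr13:111408651-111410525 had 25 bp in both lists, chr14:28471501-28473525 had 50 bp and chr11:45903776-45906250 had 250 bp. Just outside it, an RSC region at chr5:84747201-84748575 stood 50 bp from a MEC region at chr5:84745801-84747150. The next were pairs on chromosome 4, from 7351701 to 7353700, with a gap of 100 bp, and on chromosome 2, from 7347226 to 7351100, with a gap of 475 bp. Of 539 places where an RSC-only and a MEC-only element were neighbours, 9 had a gap of at most 1000 bp. An ACC or LEC region that overlapped by at most 500 bp kept 4 further elements out of the class.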

How the data were processed

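Mice were C57BL6J, and chromatin of 4 dissected subregions was immunoprecipitated for H3K27ac and H3K4me2. Bowtie 1.1.1, bedtools 2.19.0 and build mm9 are named per the submitters' processing notes. The peak caller, its threshold, the combination of replicates and the rule behind the enhancer lists remain not given in the sources used here. Each list, as deposited, gives region starts and ends on a 25 bp grid and, where a further value is present, the region's width. A second deposited copy of the MEC H3K27ac enhancer list was identical and not used. Depth is unknown. Regions were merged with Python 3.11.15, numpy 2.4.6 and pandas 2.3.3. bedtools 2.31.1 gave as many elements (42115) and members (748). Tested on simulated lists, the merging recovered 8000 of 8000 planted elements. No test was made, because lists carry no value per library. Intervals came from scipy 1.17.1 and figures from matplotlib 3.10.9. Regions on chromosome 1 reach 197068900, past its final gene (195291439) in the GRCm38.p6 gene table, so elements are given by mm9 coordinates without gene names or sequence. The members, lists and named regions were chosen with earlier results of these data known. Named regions are the 5 clusters with the most members (ties by summed width), the 5 members with most shared bases, the 5 with H3K4me2 in RSC and MEC and no region in ACC and LEC, the 4 most unequal in width, and those nearest the threshold. Chromosome 18 was passed over. Other settings are given at the end.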

Additional observations from a re-analysis of the deposited data

How the results depend on the processing

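The number of RSC and MEC elements ranged from 661 to 850 in 8 of 9 other settings (745 with regions joined at 50% overlap of the narrower, 823 from the full lists, 850 with lists cut to the MEC length) and fell to 426 with the widest 50% of each list. RSC led the H3K4me2 shares in each of the settings given next, but not on the 221 elements on full-list H3K27ac regions of ACC or LEC when full H3K4me2 lists were counted (76.5% in RSC, 81.4% in ACC, 78.3% in LEC). With full H3K4me2 lists the shares were 45.5% in RSC, 41.8% in ACC and 34.2% in LEC. With at least 50% of bases covered they were 26.9% in RSC, 7.22% in MEC, 22.7% in ACC and 21.4% in LEC. Without elements on full-list H3K27ac regions of ACC or LEC they were 31.9% in RSC, 19.5% in MEC, 24.7% in ACC and 15.2% in LEC. For elements of 1000 to 3000 bp they were 36.3% in RSC, 22.3% in MEC, 27.8% in ACC and 23.2% in LEC. With elements built from the full H3K27ac lists they were 21.5% in RSC, 14.2% in MEC, 16.8% in ACC and 10.2% in LEC. MEC was above LEC in the third and the last of these settings and below it in the others. The share on full-list H3K27ac regions of ACC or LEC was 20.1% for elements of 1000 to 3000 bp. Without the elements on such regions the median width was 1925 bp in RSC and 1950 bp in MEC, the reverse of the order over all 748. Elements with another within 20 kb numbered 57, and within 500 kb 323. The cause of these shifts was not tested. No paired analysis was possible because the lists carry no columns per library, and for the same reason no replicate could be left out. Unknown depth and the shorter MEC lists limit every comparison between subregions.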

Other observations

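The class of the nearest H3K27ac element differed from the make-up of the series. For 152 of the 748 RSC and MEC elements, 20.3%, the nearest element of any class was one of RSC alone, a class that made up 11.8% of all elements. For 42 it was another element of RSC and MEC only (5.61%, against 1.78% of all), and for 56 one of RSC, MEC and ACC (7.49%, against 3.07%). Elements of ACC and LEC only were the nearest in 26 cases (3.48%, against 10.2%), and those of ACC, RSC and LEC in 60 (8.02%, against 14.0%). These shares are descriptions without a test.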
